A study of Mus musculus with 22 samples.

Results

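The comparison described here followed normal mouse spermatocytes through pachytene, the long stage of meiotic prophase in which homologous chromosomes are fully synapsed and crossovers mature. It set 2 arrays of mid-late-pachytene spermatocytes against 3 arrays of pre-mid-pachytene spermatocytes. Its members were the genes whose mean log2 level was at least 4 in either of these groups, which held for 9058 of the 15780 genes named on the array. All 5 arrays came from euploid males of genotype t121/D17 aged 2 months, siblings of Ts43H trisomic males. The spermatocytes were sorted by fluorescence from a suspension of single testicular cells, and 20 to 30 ng of total RNA was labelled by a two-cycle protocol. The wider series held 22 arrays, with 3 each of liver, pre-mid-pachytene cells and spermatids and 2 of mid-late-pachytene cells for each genotype. The labels do not tie the arrays to individual animals, so each p-value measures only the spread between these arrays, which may be technical.

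In pachytene the X and Y chromosomes lack a homologous partner over most of their length and are packed into the sex body, where their genes are silenced, a process known as meiotic sex chromosome inactivation. On the autosomes, transcription rises through pachytene, and many mRNAs needed for the meiotic divisions and for building the acrosome and flagellum are made well before the proteins are used. The early part of the programme, recombination and assembly of the synaptonemal complex, is completed as these later genes come on.

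Levels below are log2 hybridisation intensities, on which a difference of 1 is 2-fold and a difference of 3 is 8-fold. A change is the mid-late mean minus the pre-mid mean, with its standard error (SE) from a model of all 22 arrays. A gene was called higher or lower where limma's p, adjusted by Benjamini-Hochberg over all 15780 named genes, was under 0.05. Over all named genes, 4668 (29.6%) were called higher and 3342 (21.2%) lower in mid-late pachytene. Of the 9058 members, 3801 (42.0%) were higher, 3191 (35.2%) were lower and 2066 passed in neither direction. The arrays of both stages did not overlap for 3758 of the 3801 and 3124 of the 3191. With 3 arrays against 2 this also happened in members that were not called, such as Pgk2 and Rpl39l. The share without overlap over all named genes was not counted, so these counts are no support for the calls. The change was at least 1 in size for 3239 of the risen and 2786 of the fallen members, and at least 3 for 1107 and 1049. The median change was 0.17 over members and 0.06 over all named genes, and the median SE of a member's change was 0.26.

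Most members were expressed at both stages: 7439 reached 4 in both groups, 978 in pre-mid pachytene alone and 641 in mid-late pachytene alone. A level below 3 was taken as background, a value that was set and not measured on these arrays. The size of a change into or out of that range depends on the floor. This concerned 239 of the risen members, which were below 3 on all pre-mid arrays, and 378 of the fallen ones, which were below 3 on both mid-late arrays. At the threshold of 4 itself, Snn, Aopep and Slc7a7 lay just inside with higher group means of 4.003, 4.004 and 4.004. Slc44a1, Nme3 and Liph lay just outside at 3.998, 3.997 and 3.995. Among the 6722 genes outside the members, 867 were called higher and 151 lower, with a median change of 0.22 for the former.

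The labelled stages were set against lists of cell type markers. Of 14 measured markers of pachytene spermatocytes, 11 rose and none fell, with a median change of 2.96. The median level of this list was 10.31, 10.41 and 9.84 on the pre-mid arrays and 14.07 and 14.30 on the mid-late arrays. Among 12 markers of leptotene and zygotene, the stages that precede pachytene, 9 fell and 1 rose, with a median change of -3.13. That list stood at 11.95, 12.25 and 11.51 before and at 8.73 and 9.54 after. Both lists thus separated the stages on every array.

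Markers of other cells also moved. Of 16 markers of elongating spermatids, 15 were lower in mid-late pachytene and 1, Odf2, was higher. Their summed level (log2 of the sum of linear values) lay at 18.01 to 18.31 on the pre-mid arrays, 15.82 to 16.36 on the mid-late arrays and 18.75 to 18.98 on the euploid spermatid arrays, and none of the 16 was at background. The pre-mid arrays thus carried these mRNAs at a level nearer to that of spermatids than to that of mid-late spermatocytes. Of 13 Sertoli cell markers, 9 were lower and none higher in mid-late pachytene, with sums of 14.44 to 15.15 before and 10.30 to 10.85 after. The Sertoli markers Gata4, Amh and Fshr were below 3 on all 5 arrays, while Clu, Ctsl and Aard gave most of that sum. Markers of this list that are X-linked were not counted apart. Of 12 spermatogonial markers, 8 were lower and none higher, and Zbtb16, Gfra1 and Etv5 were below 3 throughout. The sums of this list were 13.14 to 13.46 before and 5.99 to 6.54 after. The X-linked Rhox13 gave most of the sum before, at 13.07, 12.75 and 13.05 on the pre-mid arrays. The median level of the list was 4.86, 3.90 and 3.87 before and 2.38 and 2.33 after. The part that other cells of the sorted fractions played in the changes below was not tested. In sorted populations, fewer cells of a type and less RNA per cell cannot be told apart.

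Other lists showed little. Leydig cell markers had 1 lower of 6 (sums of 7.15 to 8.31 before and 5.24 to 6.17 after), with Star, Cyp11a1 and Hsd17b3 at background. Macrophage markers had 1 higher and 1 lower of 10 (6.76 to 7.78 and 6.44 to 6.58), with Csf1r, Cd68, Cd163, C1qa, C1qc and Lyz2 at background. Peritubular and stromal markers had 1 higher and 2 lower of 10 (7.78 to 8.91 and 6.26 to 8.68), with Tagln, Cnn1, Col1a1, Col1a2 and Lum at background. The higher one, Col3a1, rested on mid-late replicate 2 alone: it read 2.59 and 7.86 on the mid-late arrays, and its change was 0.19 without that array. Hepatocyte markers had 3 higher and 2 lower of 11 (6.17 to 6.48 and 6.36 to 6.38), and red blood cell markers 1 lower of 2 (4.31 to 4.89 and 3.65 to 3.68). The red blood cell marker that was lower, Alas2, is X-linked. When arrays were centred on the autosomal median, 8 hepatocyte and 4 peritubular markers were called higher.

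**Figure D1:**
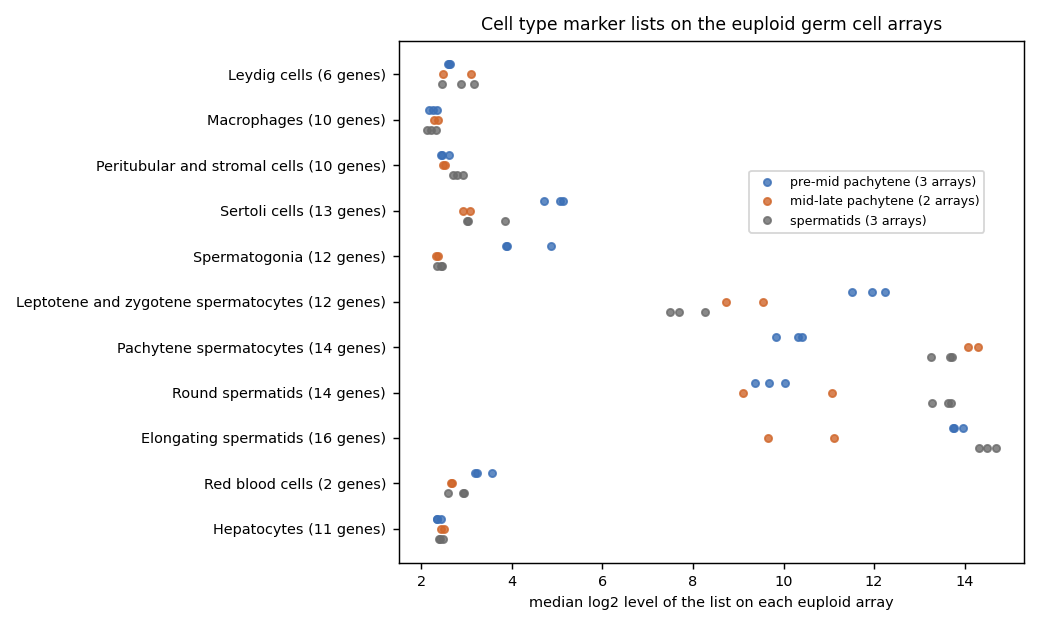
Median log2 level of each marker list (x axis) on each euploid germ cell array; every point is 1 array of pre-mid pachytene (3), mid-late pachytene (2) or spermatids (3). Pachytene markers rise from 9.84 to 10.41 up to 14.07 to 14.30, while elongating spermatid markers fall from 13.74 to 13.97 down to 9.65 to 11.12 and stand at 14.32 to 14.69 in spermatids.

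The mid-late arrays differed from each other more than the pre-mid arrays did. They were at least 2 apart for 274 members, of which 238 were higher on replicate 1, against 44 to 49 members for pairs of pre-mid arrays. Round spermatid markers followed this split, with a median level of 11.06 on mid-late replicate 1 and 9.11 on replicate 2, and elongating spermatid markers likewise, at 11.12 and 9.65. Over all named genes the correlation was 0.988 between the mid-late arrays, 0.992 to 0.995 between pre-mid arrays and 0.848 to 0.864 across the stages.

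The largest rises started near background. Pkdrej, a polycystin-family protein of sperm, read 2.07, 2.43 and 2.19 on the pre-mid arrays and 10.79 and 11.12 on the mid-late arrays. Its change was 8.72 ± 0.19 (SE), limma adjusted p = 1.07e-14, and the groups were far apart. It kept that height in spermatids, at 10.60, 10.89 and 10.50. Slc25a54, a mitochondrial carrier, went from 4.41, 4.36 and 4.16 to 12.98 and 12.61 (change 8.49 ± 0.14 (SE), limma adjusted p = 8.58e-16). Cpt1b, which loads fatty acids onto carnitine for import into mitochondria, went from 2.44, 2.86 and 2.37 to 10.91 and 10.48 (change 8.14 ± 0.21 (SE), limma adjusted p = 5.12e-14). Adcy6, an adenylyl cyclase that makes cyclic AMP, went from 2.89, 3.01 and 3.03 to 11.29 and 11.27 (change 8.30 ± 0.60 (SE), limma adjusted p = 5.37e-09). The gap between the arrays of these genes followed from their choice as the largest rises without overlap.

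Some strong rises were less high in spermatids. Gfi1, a zinc-finger repressor, read 4.09, 3.29 and 2.92 and then 11.12 and 11.10 (change 7.68 ± 0.41 (SE), limma adjusted p = 1.52e-10), and 6.53, 7.37 and 7.59 in spermatids. Lama2, a laminin chain of basement membranes, read 3.22, 3.31 and 3.35, then 10.67 and 10.67 (change 7.38 ± 0.43 (SE), limma adjusted p = 4.73e-10), and 8.15, 7.73 and 7.61 in spermatids. Ovol2, a zinc-finger transcription factor, read 3.90, 3.80 and 2.69 and then 10.90 and 10.62 (change 7.29 ± 0.25 (SE), limma adjusted p = 9.76e-13), and stayed at 10.83, 10.99 and 10.64 in spermatids. The other genes among the 15 largest rises were Ccdc88b (8.59), Egflam (8.47), Prss42 (8.31), Abca14 (8.19), Rhcg (8.12), Kcng4 (7.46), Niban1 (7.44) and Cyb5r2 (7.30). Only genes whose arrays did not overlap between stages could enter these 15, so the lack of overlap was set by the choice.

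The largest fall was that of Prss50, a testis serine protease-like gene on chromosome 9. It read 12.62, 12.97 and 12.31 on the pre-mid arrays and 1.87 and 1.93 on the mid-late arrays (change -10.73 ± 0.20 (SE), limma adjusted p = 1.96e-15). The mid-late arrays were at background, and so were spermatids at 2.43, 1.92 and 1.88. Ppp1ca, a catalytic subunit of protein phosphatase 1, read 12.03, 11.84 and 11.34 and then 3.72 and 3.81 (change -7.97 ± 0.41 (SE), limma adjusted p = 1.06e-10). Sohlh2, a transcription factor of spermatogonia, read 10.34, 10.38 and 9.81 and then 2.33 and 2.12 (change -7.95 ± 0.30 (SE), limma adjusted p = 2.41e-12). Of the 15 largest falls, 10 were on X and 1 on Y. The autosomal ones were Prss50, Ppp1ca, Sohlh2 and Tnp2.

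**Figure D2:**
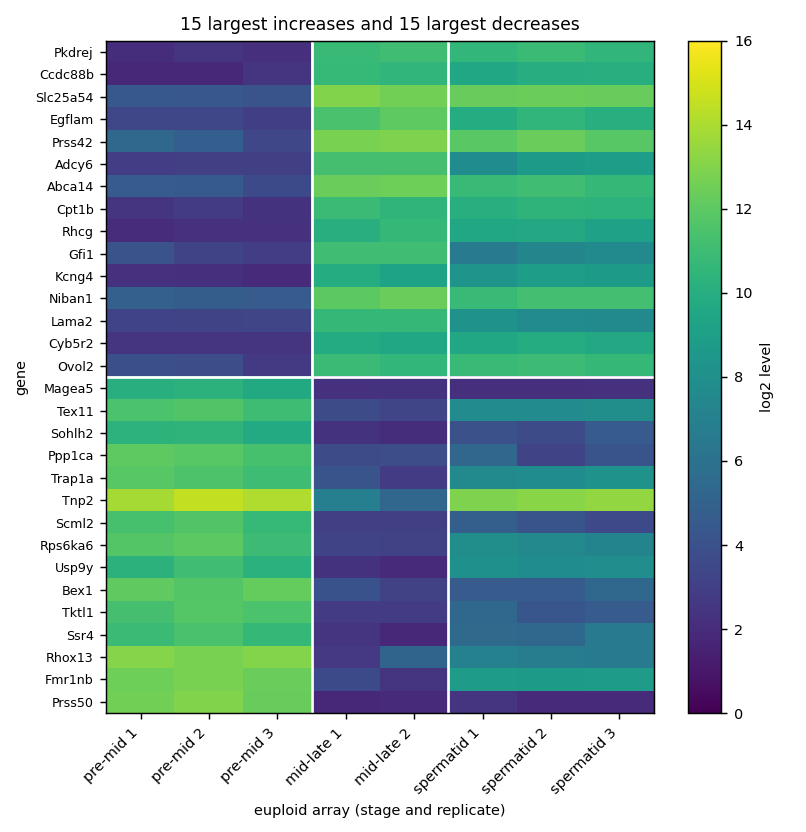
Log2 level (colour) of the 15 members with the largest increases (above the white line) and the 15 with the largest decreases (below it) on each euploid array (columns: 3 pre-mid pachytene, 2 mid-late pachytene, 3 spermatids). Prss50 goes from 12.31 to 12.97 down to 1.87 and 1.93 and stays there in spermatids, while Tnp2 is at 5.26 and 6.92 only on the mid-late arrays.

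X-linked genes fell together. Of 254 X-linked members, 230 (90.6%) were lower, 5 (1.97%) higher and 19 passed in neither direction. Of 8785 autosomal members, 33.6% were lower and 43.1% higher. The filter itself favours falls among X-linked members, because a gene that reached 4 in pre-mid pachytene alone has a lower mean in mid-late pachytene. A mean of at least 4 was reached by 248 X-linked genes in pre-mid and 105 in mid-late pachytene, against 8154 and 7958 autosomal genes. The median change was -3.41 for X-linked members and 0.25 for autosomal ones. X-linked members had a median level of 7.41, 7.61 and 7.45 on the pre-mid arrays and of 3.58 and 3.41 on the mid-late arrays. Autosomal members stood at 8.37, 8.50 and 8.34 and then at 8.79 and 8.61. The fall was at least 3 for 142 X-linked members, and 68 of the 230 that fell (29.6%) ended below 3 on both mid-late arrays, against 309 of 2951 fallen autosomal members (10.5%).

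In spermatids, X-linked members had median levels of 5.38, 5.05 and 5.35, between those of the spermatocyte stages. Counted by a mean of at least 8, 110 X-linked genes were that high in pre-mid pachytene, 10 in mid-late pachytene and 82 in spermatids. Counted at 4, there were 248, 105 and 176. Over all 542 X-linked genes on the array, many of them at background at both stages, the median change was -0.38 against 0.07 for autosomes. Centring each array on its autosomal median added the same 0.32 to every change, autosomal ones included, and left this X median at -0.07. The X median thus depended on which genes were counted, and was -5.01 for genes averaging 6 or more over the 5 arrays.

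**Figure D3:**
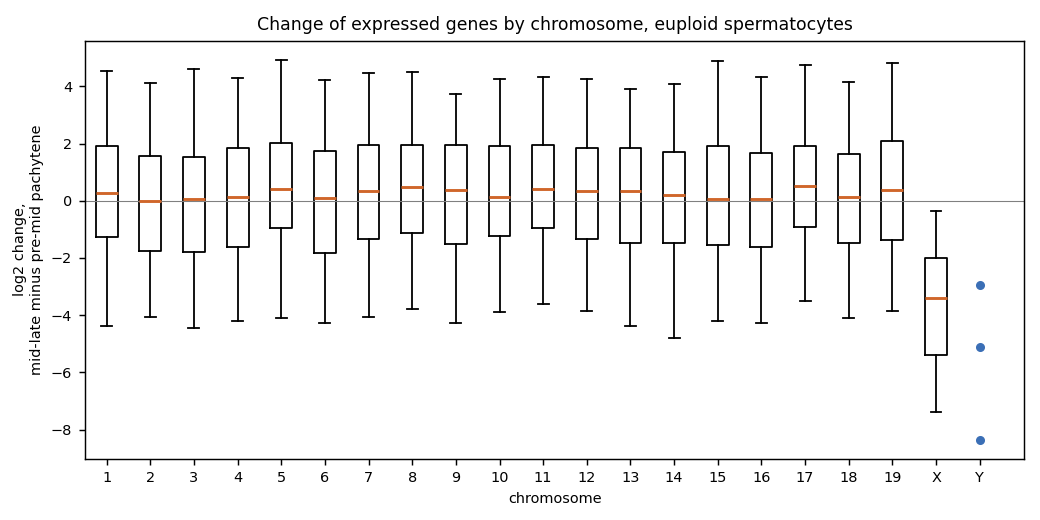
Log2 change of members (y axis) by chromosome (x axis); boxes span the quartiles, the orange line is the median, whiskers reach the 5th and 95th percentiles, and the 3 Y-linked members are points. The X median is -3.41, while the autosomes together have a median of 0.25.

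The 8 largest X-linked falls were those of Fmr1nb, Rhox13, Ssr4, Tktl1, Bex1, Rps6ka6, Scml2 and Trap1a. Fmr1nb read 12.49, 12.80 and 12.34 and then 3.58 and 2.45 (change -9.53 ± 0.70 (SE), limma adjusted p = 6.89e-09), and was back at 8.85, 8.72 and 8.86 in spermatids. Rhox13, a homeobox gene of the reproductive cluster, read 13.07, 12.75 and 13.05 and then 2.64 and 5.16 (change -9.06 ± 0.54 (SE), limma adjusted p = 5.55e-10). Its mid-late arrays lay 2.52 apart, but both were well below the pre-mid arrays. Scml2, a Polycomb-related protein that acts on chromatin of the germ line, read 11.32, 11.68 and 10.71 and then 3.02 and 3.04 (change -8.20 ± 0.33 (SE), limma adjusted p = 5.83e-12), and 4.87, 4.14 and 3.55 in spermatids. Tex11, a crossover factor, read 11.46, 11.63 and 11.03 and then 3.74 and 3.36 (change -7.82 ± 0.26 (SE), limma adjusted p = 6.76e-13), and 7.70, 7.73 and 7.90 in spermatids. Fmr1nb and Tex11 were thus higher again in spermatids than in mid-late pachytene, and Scml2 stayed below 5.

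The rest of the 8 largest X-linked falls were of similar size. Of these genes, Ssr4 had a mean of 13.01 in euploid liver. Tktl1, Bex1, Rps6ka6 and Trap1a stood at 2.47, 4.97, 2.54 and 2.33 there. Ssr4, a subunit of the translocon-associated complex of the endoplasmic reticulum, read 10.89, 11.40 and 10.67 and then 2.48 and 1.86 (change -8.82 ± 0.42 (SE), limma adjusted p = 3.78e-11). Tktl1, a transketolase-like gene, changed by -8.68, Bex1 by -8.42, Rps6ka6, a ribosomal S6 kinase, by -8.29 and Trap1a by -7.99. Of 17 measured multicopy or ampliconic X genes, 13 were lower and none higher, with a median change of -3.59. Magea5, a cancer-testis gene of this list, read 10.11, 10.30 and 9.73 and then 2.26 and 2.35, and stayed at 2.22, 2.23 and 2.27 in spermatids. The 4 genes of the list that were not called, Fthl17a, Usp26, Spin2c and Samt4, were below 4 on average at both stages.

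The X-linked members that went the other way were genes at higher levels in spermatids. Samt2b read 2.28, 4.26 and 3.27 and then 8.40 and 6.59 (change 4.22 ± 0.48 (SE), limma adjusted p = 1.14e-06), with 10.64, 10.82 and 11.16 in spermatids. Akap14, an anchor of protein kinase A, read 5.53, 6.57 and 6.0 and then 9.71 and 7.79 (change 2.72 ± 0.50 (SE), limma adjusted p = 0.000193), with 11.66, 11.64 and 12.12 in spermatids. Both were higher on mid-late replicate 1 than on replicate 2. The calls of the other 3 rested on mid-late replicate 1: without it the changes of 4930480E11Rik (1.13), 4933428M09Rik (1.85) and Fam47c (1.31) were 0.30, 0.35 and -0.03, none past the threshold. The first also missed it without pre-mid replicate 3, the second without pre-mid replicate 2 and the third without pre-mid replicate 1 or 3.

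On the Y chromosome, 3 of 6 measured genes were members and all 3 fell. Usp9y, a deubiquitinating enzyme, read 10.27, 11.07 and 10.19 and then 2.32 and 1.99 (change -8.35 ± 0.25 (SE), limma adjusted p = 2.22e-13), with 8.0, 7.78 and 7.87 in spermatids. Zfy2, a zinc-finger protein, read 10.51, 11.39 and 11.72 and then 6.31 and 5.85 (change -5.12 ± 0.70 (SE), limma adjusted p = 9.92e-06). Eif2s3y, a translation initiation factor subunit, read 11.49, 11.99 and 12.20 and then 9.74 and 8.12 (change -2.96 ± 0.39 (SE), limma adjusted p = 6.18e-06). The stages did not overlap for any of the 3, while Sry and Sly stayed below 3 and Uty read at most 3.58 on these arrays.

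Several X-linked housekeeping genes have an autosomal counterpart used in the testis, in many cases a retrogene without introns. Both genes of a pair were measured for 6 of 14 listed pairs. The X gene was lower in all 6, and in 5 of them the autosomal gene was higher. Cetn2, a centrin of the centriole, read 9.39, 9.79 and 9.44 and then 3.29 and 2.87 (change -6.46 ± 0.20 (SE), limma adjusted p = 2.79e-13). Its counterpart Cetn1 read 11.08, 11.28 and 11.79 and then 13.84 and 13.93 (change 2.5 ± 0.18 (SE), limma adjusted p = 7.39e-09). The X gene came down to about 3 as the autosomal gene rose.

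Ddx3x, an RNA helicase, read 9.09, 7.74 and 9.10 and then 4.52 and 4.05 (change -4.36 ± 0.52 (SE), limma adjusted p = 2.07e-06). D1Pas1, its counterpart on chromosome 1, read 9.05, 9.93 and 9.13 and then 12.75 and 12.90 (change 3.46 ± 0.22 (SE), limma adjusted p = 1.63e-09). Both genes changed well beyond the spread of their arrays. Utp14a, a nucleolar factor of ribosome production, read 8.51, 8.45 and 7.81 and then 6.67 and 3.94 (change -2.95 ± 0.51 (SE), limma adjusted p = 0.000107). Utp14b read 7.26, 7.88 and 7.02 and then 10.44 and 10.14 (change 2.90 ± 0.27 (SE), limma adjusted p = 1.18e-07). The mid-late arrays of Utp14a lay far apart but below each pre-mid array.

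Pdha2, the testis form of the pyruvate dehydrogenase E1 alpha subunit, read 12.45, 13.24 and 12.10 and then 14.76 and 14.76 (change 2.16 ± 0.26 (SE), limma adjusted p = 1.86e-06). The X-linked Pdha1 was already below 4 at 3.04, 2.49 and 3.75 and then read 2.14 and 2.17 (change -0.93 ± 0.25 (SE), limma adjusted p = 0.00507), so that it was no member. Cstf2, a cleavage stimulation factor that acts in polyadenylation, read 9.33, 9.66 and 9.06 and then 4.49 and 4.94 (change -4.63 ± 0.29 (SE), limma adjusted p = 8.85e-10). Its counterpart Cstf2t read 12.78, 12.90 and 13.19 and then 13.27 and 13.74, a change of 0.55 ± 0.17 (SE), limma adjusted p = 0.0128. The Cstf2t call was lost without mid-late replicate 2 or pre-mid replicate 1, and its change was -0.19 after quantile normalization of all arrays. Slc25a5, an ADP/ATP carrier, read 9.41, 9.44 and 8.85 and then 2.25 and 5.77 (change -5.22 ± 0.78 (SE), limma adjusted p = 2.49e-05). Its counterpart Slc25a31 fell as well, from 13.90, 14.26 and 13.57 to 13.04 and 13.66 (change -0.56 ± 0.22 (SE), limma adjusted p = 0.0427), and missed the threshold without mid-late replicate 1, pre-mid replicate 1 or pre-mid replicate 2, and after autosomal centring. Its stages overlapped.

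For the pairs with 1 gene measured, that gene is given alone. Gk2, a glycerol kinase retrogene, read 13.18, 13.42 and 13.22 and then 15.92 and 16.06 (change 2.72 ± 0.12 (SE), limma adjusted p = 1.4e-11). Pgk2, the testis phosphoglycerate kinase, read 14.15, 14.53 and 14.27 and 14.87 and 14.79, a change of 0.51 with a 95% interval of -0.10 to 1.13 that did not pass (limma adjusted p = 0.153). Rpl39l, a ribosomal protein paralog, changed by 0.42 (limma adjusted p = 0.0988). The X-linked Rbmx and Zfx changed by -4.06 and -2.95, both called lower, and the retrogene G6pd2 was at background.

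**Figure D4:**
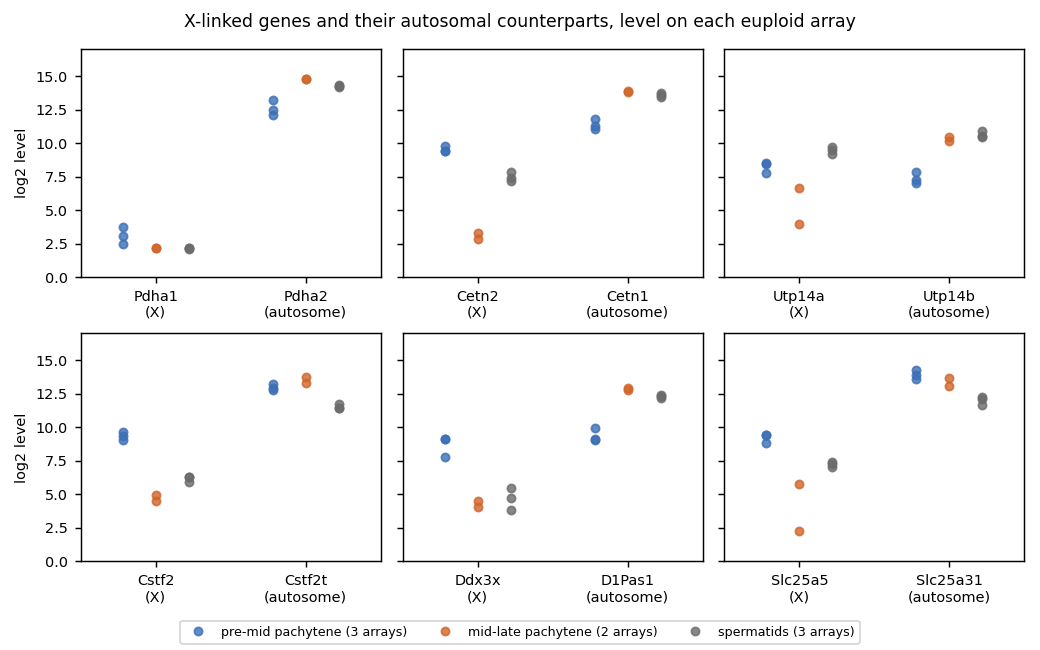
Log2 level (y axis) of 6 X-linked genes and their autosomal counterparts, each point 1 euploid array of pre-mid pachytene (3), mid-late pachytene (2) or spermatids (3). Every X gene is lower in mid-late than in pre-mid pachytene, and Cetn1, D1Pas1, Utp14b and Pdha2 rise by 2.5, 3.46, 2.90 and 2.16.

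The lists that follow are read against 42.0% of members higher and 35.2% lower. Their counts cover all measured genes, and some of these were not members. Over all named genes the shares were 29.6% and 21.2%. Centring arrays on the autosomal median added the same 0.32 to every change, so list medians near 0 depend on the scaling. Genes of the chromosome axis and its synapsis mostly fell. Of 15 measured genes of the synaptonemal complex and cohesin, 12 were lower and 2 higher (80.0% and 13.3%, against 35.2% and 42.0% of members), with a median change of -2.60. The largest fall in this list was that of 4930447C04Rik (Six6os1), a central element protein, which read 11.98, 12.06 and 11.42 and then 4.88 and 6.32 (change -6.22 ± 0.33 (SE), limma adjusted p = 1.32e-10). Tex12, another central element protein, read 12.91, 13.29 and 12.07 and then 7.97 and 8.41 (change -4.56 ± 0.56 (SE), limma adjusted p = 2.8e-06). Sycp1, the transverse filament that joins homologous axes, read 13.68, 14.14 and 13.13 and then 9.48 and 9.95 (change -3.93 ± 0.23 (SE), limma adjusted p = 5.39e-10). All 3 were below every pre-mid array on both mid-late arrays.

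The exceptions were Syce1, a central element protein, at 12.56, 12.59 and 12.45 and then 14.24 and 14.17 (change 1.67 ± 0.07 (SE), limma adjusted p = 1.31e-11), and Stag3, the meiotic cohesin subunit, at 12.46, 13.08 and 12.35 and then 13.82 and 14.13 (change 1.35 ± 0.17 (SE), limma adjusted p = 3.93e-06). The axis proteins Sycp2 and Sycp3 fell by 1.45 and 1.48. Syce2 fell by 4.15, to 10.94 and 9.83, and was back at 13.55, 13.62 and 13.93 in spermatids. Leptotene and zygotene markers moved with this list, which shares Sycp1, Sycp3, Smc1b and Rec8 with them.

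Recombination genes moved both ways. Of 19 measured genes of break formation and strand exchange, 8 were lower and 8 higher (42.1% each), with a median change of -0.17 that turned to 0.15 when arrays were centred on the autosomal median. It was -0.82 after quantile normalization, -0.33 without mid-late replicate 1 and -0.01 without mid-late replicate 2. The largest changes in the list were falls. Dmc1, the meiotic recombinase, read 10.20, 10.57 and 10.05 and then 3.01 and 3.04 (change -7.25 ± 0.31 (SE), limma adjusted p = 1.14e-11). Mnd1, which acts with Dmc1 in strand exchange, read 8.61, 8.62 and 8.05 and then 2.36 and 2.37 (change -6.06 ± 0.20 (SE), limma adjusted p = 6.86e-13). Mei4, needed for break formation, changed by -4.43, and Meiob, a single-strand binding protein, by -3.93. Both mid-late arrays of Dmc1 and Mnd1 were at about 3 or below.

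Other genes of the list were higher in mid-late pachytene, here named after their values were seen. The 3 parts of the MRN complex, which binds broken ends, were all higher, with changes of 1.54 for Rad50, 1.79 for Mre11a and 2.02 for Nbn. Spo11, which makes the breaks, read 11.31, 11.64 and 10.67 and then 12.02 and 12.18 (change 0.89 ± 0.22 (SE), limma adjusted p = 0.00298), so it did not fall with Mei4.

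Among 12 genes of crossover formation and resolution, 6 were lower and 5 higher, with a median change of -0.65. It was -0.33 after autosomal centring and turned to 0.68, with 4 higher and 3 lower, over the 8 genes that averaged 6 or more. Ccnb1ip1 (Hei10), an E3 ligase that marks crossover sites, read 12.51, 12.53 and 12.26 and then 8.45 and 8.62 (change -3.90 ± 0.42 (SE), limma adjusted p = 6.97e-07). Msh4 and Msh5, the pair that stabilises recombination intermediates, fell by 3.80 and 1.27. Pms2, a mismatch repair factor, fell from 7.15, 7.34 and 7.0 to 1.98 and 1.96 (change -5.20 ± 0.18 (SE), limma adjusted p = 1.27e-12). Mus81, a nuclease that cuts joint molecules, rose from 3.32, 3.89 and 3.04 to 8.64 and 8.89 (change 5.34 ± 0.48 (SE), limma adjusted p = 8.11e-08). Mlh3, which acts at crossover sites, rose by 1.69, and Cdk2, a kinase found at those sites, by 2.27. The list thus held clear falls and clear rises side by side.

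Genes of DNA damage signalling at the sex body were mostly lower: 14 of 21 fell and 1 rose (66.7% and 4.76%), with a median change of -1.44. Atm, the kinase that responds to breaks, read 8.97, 8.11 and 8.45 and then 2.20 and 2.36 (change -6.23 ± 0.49 (SE), limma adjusted p = 1.72e-08). Topbp1, an activator of the ATR kinase, read 13.49, 14.02 and 13.21 and then 9.98 and 10.44 (change -3.36 ± 0.33 (SE), limma adjusted p = 2.04e-07). H2ax, the histone that ATR marks over unsynapsed chromatin, read 13.05, 13.49 and 13.20 and then 10.96 and 10.53 (change -2.5 ± 0.22 (SE), limma adjusted p = 6.98e-08). Scml2 and Huwe1, also of this list, are X-linked. Mdc1, which spreads the mark through the sex body, changed by -0.49 and did not pass (limma adjusted p = 0.0937).

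Of 27 cyclins, kinases and regulators of the meiotic divisions, 12 were higher and 6 lower (44.4% and 22.2%). The 25 members of this list held 12 higher and 5 lower, against 42.0% and 35.2% of all members. Over the 27 genes the median change was 0.68. The count higher was 9 with a median of 0.31 after quantile normalization, and 16 with a median of 1.0 after autosomal centring. Ccna1, the cyclin A of male meiosis, read 8.09, 8.08 and 7.86 and then 13.26 and 13.53 (change 5.38 ± 0.13 (SE), limma adjusted p = 2.39e-14). Plk1, a kinase of entry into division, read 8.83, 8.62 and 7.91 and then 13.71 and 13.86 (change 5.34 ± 1.0 (SE), limma adjusted p = 0.000259). Aurkb, the chromosomal passenger kinase, rose from 6.01, 5.67 and 4.95 to 10.55 and 10.70 (change 5.08 ± 0.63 (SE), limma adjusted p = 3.08e-06), and Aurka, the spindle pole kinase, by 3.54. No array of these kinases overlapped between stages.

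Several genes of the list fell. Ccna2, which drives the mitotic cycle, read 8.88, 8.37 and 7.70 and then 3.84 and 3.50 (change -4.65 ± 0.55 (SE), limma adjusted p = 2.11e-06). Ccnb3, an X-linked cyclin of early prophase, read 9.90, 10.23 and 9.08 and then 2.10 and 2.12 (change -7.63 ± 0.24 (SE), limma adjusted p = 3.34e-13). Fbxo5 (Emi1), an inhibitor of the anaphase-promoting complex, fell from 8.86, 8.72 and 8.55 to 2.92 and 3.0 (change -5.75 ± 0.58 (SE), limma adjusted p = 3.22e-07). Cdk1 and Ccnb2 changed by 0.13 and 0.49, neither past the threshold (limma adjusted p = 0.908 and 0.523).

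Of 27 genes of DNA replication, 12 fell and 6 rose (11 and 6 of its 24 members), with a median change of -0.76. Mcm4, a subunit of the replicative helicase, read 11.82, 11.42 and 11.47 and then 3.50 and 4.19 (change -7.72 ± 0.40 (SE), limma adjusted p = 9.29e-11). Mcm2, Mcm3, Mcm5 and Mcm6 fell by 4.8, 5.51, 4.46 and 2.59, while Mcm7, of the same helicase, rose by 2.32. Cdt1, which loads the helicase, fell from 8.91, 7.61 and 7.92 to 2.48 and 2.56 (change -5.63 ± 0.61 (SE), limma adjusted p = 6.57e-07). Of the 4 GINS subunits measured, Gins1, Gins2 and Gins4 rose by 1.26, 1.22 and 2.01, and Gins3 changed by -0.01. Subunits of both complexes therefore did not move as a block. Spermatogonial markers, which stand for cells that replicate DNA, fell in the same arrays. Most of their summed level was that of the X-linked Rhox13.

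**Figure D5:**
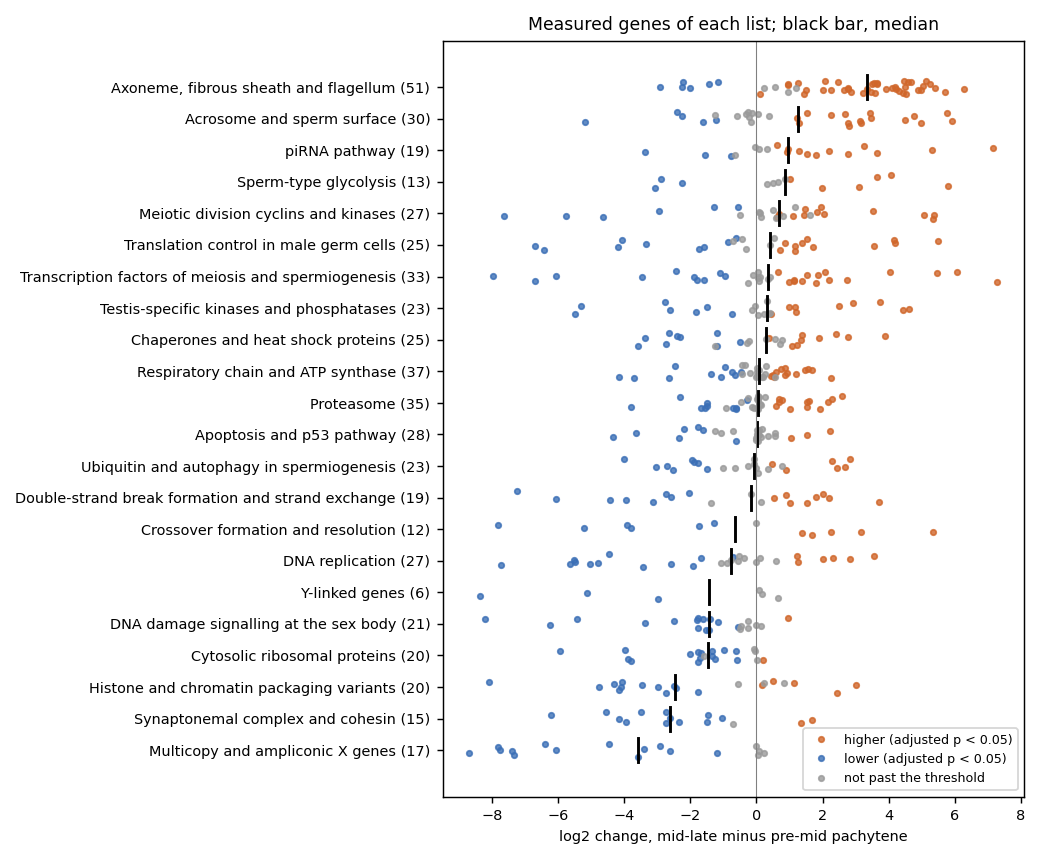
Log2 change, mid-late minus pre-mid pachytene (x axis), of every measured gene of each list (number of genes in brackets); colours mark genes called higher, lower or neither by limma's adjusted p, and the black bar is the list's median. Medians run from -3.59 for multicopy X genes to 3.35 for genes of the flagellum.

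Transcription factors of meiosis and spermiogenesis moved both ways: 15 of 33 were higher and 10 lower (14 and 9 of 27 members), with a median change of 0.35. The median was 0.04 after quantile normalization, 0.12 without pre-mid replicate 3 and 0.98 over the 27 members of the list. Stra8, which starts meiosis in response to retinoic acid, read 9.46, 8.73 and 8.20 and then 2.09 and 2.10 (change -6.70 ± 0.31 (SE), limma adjusted p = 3.02e-11). Pou5f2 (Sprm-1), a POU-domain factor of spermatocytes, read 5.62, 5.35 and 6.19 and then 11.82 and 11.79 (change 6.08 ± 0.64 (SE), limma adjusted p = 4.51e-07), and was at 5.64, 5.92 and 7.93 in spermatids. Ovol1, a relative of Ovol2, rose by 5.45. Dmrtb1, a DM-domain factor, rose from 11.08, 10.83 and 10.95 to 15.19 and 14.77 (change 4.03 ± 0.18 (SE), limma adjusted p = 1.43e-11). Pou5f2 was far higher on the mid-late arrays than on any other euploid germ cell array given here.

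Regulators of the later programme, named after their values were seen, rose by smaller amounts. Mybl1 (A-MYB), the activator of many pachytene genes, read 4.44, 4.13 and 3.97 and then 5.08 and 6.90 (change 1.81 ± 0.35 (SE), limma adjusted p = 0.000318). Its mid-late arrays lay far apart but above each pre-mid array, so the size of this rise is uncertain. Rfx2, which acts on genes of cilia and flagella, read 8.69, 9.42 and 8.33 and then 10.45 and 10.88 (change 1.85 ± 0.24 (SE), limma adjusted p = 5.92e-06). Tcfl5, a basic helix-loop-helix factor of spermatocytes, read 14.92, 14.99 and 14.84 and then 15.99 and 15.81 (change 0.98 ± 0.15 (SE), limma adjusted p = 4.51e-05). Crem, which activates genes in spermatids, rose by 1.14. The fallen Taf7l is X-linked and changed by -6.06. These arrays measure mRNA only.

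A-MYB binds the core word CAACTG, its variant with a leading T, TAACTG, and both words with G for the following T, written CAACGG with its variant TAACGG. The 250 bases upstream of gene starts were searched for these on both strands (RefSeq, GRCm38.p6; 12585 named genes had an entry). Of all these promoters, 21.7% held at least 1 word, as did 24.8% of those of members called higher, 20.3% of those called lower and 20.5% of the uncalled. Among members that rose by at least 3 the share was 26.9%, and among those that fell by at least 3 it was 20.0%. At least 2 matches were found in 2.87% of all promoters and in 4.98% of those of members that rose by at least 3. The RFX half-site word GTTGCCAT was present in 1.01% of all promoters and 1.31% of those of risen members, and the cyclic AMP response element TGACGTCA in 2.34% and 2.68%. A match is only a run of letters, not a site of binding.

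The upstream sequences of 4 risen regulators or piRNA genes with at least 2 MYB words, chosen after matches and changes were known from 9 such genes of the lists, show how the words lie. Capitals mark the MYB words on either strand, and each sequence runs 5′ to 3′ up to the base before the start. They come from Piwil1 (chr5:128735996-128736245, plus strand), Tdrd7 (chr4:45965085-45965334, plus strand), Rfx2 (chr17:56831009-56831258, minus strand) and Tcfl5 (chr2:180642692-180642941, minus strand).
Piwil1: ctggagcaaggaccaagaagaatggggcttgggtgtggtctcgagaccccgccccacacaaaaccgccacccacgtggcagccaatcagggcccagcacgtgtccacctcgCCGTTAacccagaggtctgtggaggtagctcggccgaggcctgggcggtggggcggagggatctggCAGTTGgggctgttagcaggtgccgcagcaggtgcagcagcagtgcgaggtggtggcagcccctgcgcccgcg
Tdrd7: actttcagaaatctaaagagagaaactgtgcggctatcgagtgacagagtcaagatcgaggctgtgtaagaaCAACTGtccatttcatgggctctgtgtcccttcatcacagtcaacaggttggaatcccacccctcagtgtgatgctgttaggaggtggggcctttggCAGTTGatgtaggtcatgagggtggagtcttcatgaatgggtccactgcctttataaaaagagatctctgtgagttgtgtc
Rfx2: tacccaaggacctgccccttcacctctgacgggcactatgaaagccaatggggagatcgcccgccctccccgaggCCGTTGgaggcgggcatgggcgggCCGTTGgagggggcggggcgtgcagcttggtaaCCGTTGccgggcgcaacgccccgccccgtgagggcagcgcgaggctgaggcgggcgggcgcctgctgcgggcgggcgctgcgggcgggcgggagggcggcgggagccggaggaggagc
Tcfl5: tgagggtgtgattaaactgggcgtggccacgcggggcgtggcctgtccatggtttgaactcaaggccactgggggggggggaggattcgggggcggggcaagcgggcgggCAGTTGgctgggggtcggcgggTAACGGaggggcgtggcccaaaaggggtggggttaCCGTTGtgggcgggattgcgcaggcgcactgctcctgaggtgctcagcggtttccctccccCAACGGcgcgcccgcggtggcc
Tcfl5 held 4 words and Rfx2 held 3, while Piwil1 and Tdrd7 held 2 each. In Tcfl5 the last word began 22 bases before the start.

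The piRNA pathway, in which PIWI proteins and their small RNAs silence transposons and, in pachytene, are made in large amounts from long precursors, rose in most of its genes. Of 19 measured genes, 12 were higher and 3 lower (63.2% and 15.8%), with a median change of 0.96, and 5 were lower after quantile normalization. Henmt1, the methyltransferase that caps the 3′ end of piRNAs, read 2.29, 2.86 and 2.74 and then 9.54 and 10.06 (change 7.17 ± 0.19 (SE), limma adjusted p = 5.64e-14). Piwil1 (MIWI), the PIWI protein of pachytene, read 11.42, 11.55 and 12.60 and then 14.91 and 14.32 (change 2.76 ± 0.39 (SE), limma adjusted p = 1.38e-05). Tdrd7, a Tudor-domain protein of the chromatoid body, read 12.53, 13.00 and 12.64 and then 14.96 and 14.90 (change 2.21 ± 0.16 (SE), limma adjusted p = 7.78e-09). Every mid-late array of these genes was above every pre-mid array.

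Other Tudor genes rose more. Tdrd1 read 3.75, 3.42 and 2.86 and then 8.32 and 8.98 (change 5.31 ± 0.37 (SE), limma adjusted p = 3.16e-09), and Tdrd5 read 7.81, 8.10 and 7.98 and then 11.63 and 11.61 (change 3.65 ± 0.39 (SE), limma adjusted p = 5.11e-07). Pld6, an enzyme of piRNA processing at mitochondria, rose by 3.27. Mov10l1, the helicase that feeds precursors into the pathway, went the other way, from 13.57, 13.74 and 13.33 to 10.09 and 10.28 (change -3.37 ± 0.11 (SE), limma adjusted p = 6.14e-13). Piwil2 (MILI) fell by 0.78 and Asz1 by 1.54, and Ddx4 (MVH) changed by 0.32 without passing (limma adjusted p = 0.104).

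Genes of the flagellum made up the list with the largest median rise. Of 51 measured genes of the axoneme, fibrous sheath and flagellum, 41 were higher and 6 lower, with a median change of 3.35. These shares were 80.4% and 11.8%. Of the 50 members of the list, 40 were higher and 6 lower, against 42.0% and 35.2% of all members. Drc1, of the complex that regulates axonemal dynein, read 5.65, 7.08 and 6.50 and then 12.58 and 12.78 (change 6.27 ± 0.39 (SE), limma adjusted p = 1.08e-09). Rsph6a, a radial spoke protein, read 7.04, 7.50 and 7.32 and then 12.95 and 13.00 (change 5.69 ± 0.18 (SE), limma adjusted p = 4.29e-13). Dnaic2 (Dnai2), an intermediate chain of outer arm dynein, read 6.52, 6.4 and 6.78 and then 11.73 and 12.19 (change 5.39 ± 0.21 (SE), limma adjusted p = 4.34e-12). No pre-mid array of these genes came near a mid-late one.

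Ruler, dynein and central-pair genes rose alike. Ccdc40, part of the ruler that sets axonemal spacing, read 6.4, 6.37 and 6.83 and then 11.46 and 12.10 (change 5.25 ± 0.20 (SE), limma adjusted p = 3.11e-12), and its partner Ccdc39 rose by 4.23. The dynein heavy chains Dnah1, Dnah2 and Dnah8 rose by 4.47, 5.14 and 3.23, and the central-pair genes Hydin, Spag6l and Spag16 by 4.5, 4.99 and 4.53. The 5 tektins measured, filament proteins of the microtubule doublets, rose by 2.09 (Tekt2) to 4.67 (Tekt3), with no overlap between stages.

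The 6 that fell were higher in spermatids than at either pachytene stage: Akap4, Ropn1, Odf1, Akap3, Odf3 and Cabyr, with changes of -2.92, -2.26, -2.23, -2.01, -1.43 and -1.17. Akap4, the main X-linked protein of the fibrous sheath, read 14.08, 14.53 and 14.22, then 11.95 and 10.76, and 15.55, 15.41 and 15.70 in spermatids. It fell with the elongating spermatid markers, among which it and Odf1 are counted, and each of the 6 was higher on mid-late replicate 1 than on replicate 2. For Odf3 and Cabyr the arrays of the stages overlapped.

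Genes of the acrosome and the sperm surface were split by array. Of 30 measured, 16 were higher and 5 lower (53.3% and 16.7%), with a median change of 1.27. Without mid-late replicate 1 the counts were 13 and 10 with a median of 0.29, and without mid-late replicate 2 they were 18 and 3 with a median of 2.12. The ADAM genes, membrane proteins that act in passage and fusion of sperm, held in both mid-late arrays. Adam18 read 8.19, 8.39 and 8.41 and then 14.11 and 14.37 (change 5.91 ± 0.25 (SE), limma adjusted p = 8.51e-12), and Adam1b read 6.62, 6.86 and 6.6 and then 12.37 and 12.51 (change 5.75 ± 0.10 (SE), limma adjusted p = 1.42e-15). Acr, the acrosomal protease acrosin, rose from 9.52, 9.78 and 9.16 to 12.96 and 12.94 (change 3.47 ± 0.26 (SE), limma adjusted p = 7.38e-09). Zpbp2, an acrosomal matrix protein, rose from 8.59, 9.02 and 9.17 to 14.01 and 13.83 (change 4.99 ± 0.15 (SE), limma adjusted p = 3.27e-13).

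For others the mid-late arrays lay far apart. Izumo1, the sperm protein of egg fusion, read 7.86, 9.09 and 8.68 and then 10.26 and 7.58, with 13.14, 12.96 and 13.20 in spermatids, and did not pass (change 0.37 ± 0.57 (SE), limma adjusted p = 0.633). Spaca4 read 6.28, 7.13 and 7.21 and then 7.21 and 4.03 (change -1.25 ± 0.71 (SE), limma adjusted p = 0.162). Of 14 round spermatid markers, 4 were higher and 3 lower, but without mid-late replicate 1 there were 3 and 6, and without replicate 2 there were 8 and 2. Their median of 0.40 was -0.84, 1.6, 0.04 and 0.71 without mid-late replicate 1, mid-late replicate 2, pre-mid replicate 1 and pre-mid replicate 2. Tex101, a surface glycoprotein counted with the zygotene markers too, fell from 14.91, 15.34 and 14.74 to 9.97 and 9.68 (change -5.17 ± 0.34 (SE), limma adjusted p = 2.02e-09).

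Genes that replace or package histones were mostly lower. Of 20 measured, 12 fell and 5 rose (60.0% and 25.0%), with a median change of -2.46. The count of 5 was 3 without pre-mid replicate 1 or pre-mid replicate 3, 2 after quantile normalization and 1 with the 5 euploid pachytene arrays fitted alone. Tnp2, a transition protein that displaces histones in spermatids, read 13.86, 14.55 and 14.11, then 6.92 and 5.26 (change -8.08 ± 0.50 (SE), limma adjusted p = 9.37e-10), and 12.92, 13.13 and 13.42 in spermatids. Prm2, a protamine, read 13.68, 13.98 and 13.57, then 9.70 and 8.26 (change -4.76 ± 0.63 (SE), limma adjusted p = 6.57e-06), and 13.86, 13.95 and 14.24 in spermatids. Tnp1 read 15.24, 15.50 and 15.42, then 11.81 and 10.67 (change -4.15 ± 0.61 (SE), limma adjusted p = 2.04e-05), and 15.70, 15.89 and 15.85 in spermatids. These mRNAs, all among the elongating spermatid markers described above, were close to or above their spermatid level on the pre-mid arrays, and mid-late pachytene was the stage with the low values.

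Chromatin genes outside that marker list moved less in step. Macroh2a2, a macroH2A variant, read 2.73, 3.06 and 3.27 and then 6.57 and 5.47 (change 3.0 ± 0.47 (SE), limma adjusted p = 4.18e-05), and Chd5, a remodeller of spermatid chromatin, read 5.23, 4.45 and 5.37 and then 8.33 and 6.56 (change 2.43 ± 0.52 (SE), limma adjusted p = 0.000772). Brdt, a bromodomain protein of the testis, rose by 0.49. H1f6, the testis linker histone H1t, read 3.41, 3.49 and 3.51 and 3.70 and 4.92 and did not pass (change 0.84 ± 0.45 (SE), limma adjusted p = 0.139), and its level was low on all 5 arrays.

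Testis kinases and phosphatases showed both patterns, with 9 of 23 higher, 7 lower and a median change of 0.32. The median was 0.06 without mid-late replicate 1, 0.17 without pre-mid replicate 1 and 0.64 after autosomal centring. Ppp3r2 and Ppp3cc, the subunits of the testis calcineurin, rose together. Ppp3r2 read 8.50, 8.79 and 8.20 and then 13.12 and 13.09 (change 4.61 ± 0.32 (SE), limma adjusted p = 3.97e-09), and Ppp3cc read 8.93, 9.47 and 8.67 and then 12.78 and 12.74 (change 3.74 ± 0.20 (SE), limma adjusted p = 1.6e-10). Tssk6, a kinase of the spermatid nucleus and one of the elongating spermatid markers, read 13.60, 13.50 and 13.93, then 8.91 and 7.82 (change -5.31 ± 0.37 (SE), limma adjusted p = 3.35e-09), and 13.28, 13.48 and 14.05 in spermatids. Tssk2 and Tssk3 fell by 2.60 and 2.75. Pdk1, a kinase that restrains pyruvate dehydrogenase, fell from 9.23, 8.83 and 9.17 to 3.06 and 4.13 (change -5.48 ± 0.36 (SE), limma adjusted p = 1.85e-09), in arrays where its substrate subunit Pdha2 rose.

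In glycolysis, 6 of 13 genes were higher and 3 lower (46.2% and 23.1%), with a median change of 0.87. The median was 0.23 after quantile normalization, and after autosomal centring it was 1.19 with 9 higher. Pfkp, a phosphofructokinase, read 5.34, 5.45 and 5.47 and then 10.96 and 11.49 (change 5.81 ± 0.18 (SE), limma adjusted p = 3.27e-13). Pfkm, the muscle form of that enzyme, read 9.17, 9.09 and 9.27 and then 13.27 and 13.24 (change 4.08 ± 0.14 (SE), limma adjusted p = 1.13e-12). Eno4, a sperm enolase, read 9.17, 9.20 and 9.61 and then 13.12 and 12.84 (change 3.65 ± 0.19 (SE), limma adjusted p = 1.25e-10), and Hk1, hexokinase, rose by 3.11. Gapdhs, the sperm glyceraldehyde-3-phosphate dehydrogenase and an elongating spermatid marker, fell from 13.32, 13.60 and 13.42 to 11.16 and 9.61 (change -3.06 ± 0.44 (SE), limma adjusted p = 1.63e-05). Ldhc, the testis lactate dehydrogenase, was near the top of the scale throughout and changed by 0.87 without passing (limma adjusted p = 0.319).

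The respiratory chain had no common direction: 13 of 37 genes were higher and 10 lower, with a median change of 0.08. Quantile normalization turned this to 5 higher and 19 lower with a median of -0.34, and centring on the autosomal median to 21 higher, so the balance depended on the scaling. Larger changes stood clear of it. Cox8c, a testis form of a cytochrome oxidase subunit, rose from 10.63, 10.52 and 10.74 to 13.19 and 12.61 (change 2.27 ± 0.19 (SE), limma adjusted p = 3.49e-08), and Cox7b2, another such form, rose by 1.47. Ndufa1, an X-linked complex I subunit, fell from 15.31, 15.39 and 15.15 to 12.07 and 11.10 (change -3.70 ± 0.28 (SE), limma adjusted p = 8.85e-09). Ndufa4 and Cox6b1 fell by 4.15 and 2.63.

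Ribosomal protein genes were lower as a list: 15 of 20 measured fell and 1 rose, with a median change of -1.47. Rpl15, of the large subunit, read 10.48, 10.41 and 10.42 and then 4.13 and 4.89 (change -5.93 ± 0.51 (SE), limma adjusted p = 4.58e-08). Rpl22 read 10.47, 10.41 and 10.31 and then 6.04 and 6.79 (change -3.98 ± 0.26 (SE), limma adjusted p = 1.89e-09). Only 20 of 75 listed genes were measured by a named probe set, and processed pseudogenes of these genes can share probe sequence. The single call upward, Rpsa, was of a probe set below 3 on all 5 arrays.

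Among 25 regulators of translation, 11 were higher and 9 lower, with a median change of 0.42, which was -0.10 after quantile normalization and -0.01 without mid-late replicate 2. Dazl, an RNA-binding protein of the germ line, read 14.65, 14.69 and 14.50 and then 7.56 and 8.30 (change -6.69 ± 0.21 (SE), limma adjusted p = 4.45e-13). Cpeb1, which controls poly(A) tails in early prophase, read 9.44, 8.95 and 8.59 and then 2.59 and 2.55 (change -6.42 ± 0.16 (SE), limma adjusted p = 3.81e-14). Pabpc6, a testis poly(A)-binding protein, read 9.07, 8.76 and 9.02 and then 14.27 and 14.64 (change 5.50 ± 0.22 (SE), limma adjusted p = 6.16e-12). Papolb, the poly(A) polymerase of spermatids, rose by 4.18, and Pabpc2 by 4.15. The stages did not overlap for any of these genes.

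Chaperones were evenly divided, with 9 of 25 higher and 9 lower and a median change of 0.29 (-0.36 after quantile normalization). Cct6b, the testis form of a chaperonin subunit, read 11.39, 11.84 and 11.20 and then 15.20 and 15.55 (change 3.90 ± 0.20 (SE), limma adjusted p = 1.25e-10). Clgn (calmegin), a chaperone of the endoplasmic reticulum for sperm surface proteins, read 11.73, 11.98 and 12.47 and then 15.03 and 14.66 (change 2.78 ± 0.23 (SE), limma adjusted p = 3.38e-08), and rose in the arrays where the ADAM genes rose. Hspa2, the meiotic heat shock protein, read 13.16, 13.31 and 13.25 and then 14.73 and 14.44 (change 1.35 ± 0.41 (SE), limma adjusted p = 0.0118). Hspa8, the constitutive form, fell by 2.72, and Hspa1b, the inducible form, fell from 7.25, 6.58 and 5.74 to 2.88 and 3.02 (change -3.57 ± 0.56 (SE), limma adjusted p = 4.46e-05).

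Proteasome genes were split as well, with 12 of 35 higher and 10 lower, all of them among the 30 members of the list. The median change was 0.06, which became -0.52 with 16 lower after quantile normalization. Psmc3, an ATPase of the regulatory cap, read 12.47, 12.74 and 12.21 and then 14.95 and 15.18 (change 2.60 ± 0.14 (SE), limma adjusted p = 1.44e-10), and Psmb7, a catalytic subunit, rose by 2.30. Psme1, of the interferon-induced activator, fell from 7.13, 6.10 and 5.48 to 2.39 and 2.49 (change -3.79 ± 0.38 (SE), limma adjusted p = 3.12e-07), whereas Psme4, the PA200 activator that acts on histones in the testis, rose by 1.53. Psma8, the spermatocyte-specific core subunit, changed by -0.13 with a 95% interval of -1.45 to 1.19 (limma adjusted p = 0.897).

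Of 23 genes of ubiquitination and autophagy, 6 were higher and 8 lower, with a median change of -0.06, which was -0.77 with 13 lower after quantile normalization, 0.25 after autosomal centring and between -0.24 and 0.04 when 1 array was left out. Marchf10, a ligase of the spermatid microtubules, rose from 8.06, 8.62 and 8.23 to 11.34 and 10.92 (change 2.83 ± 0.36 (SE), limma adjusted p = 4.79e-06), and Asb17 fell from 12.53, 13.03 and 12.59 to 9.46 and 8.0 (change -3.99 ± 0.33 (SE), limma adjusted p = 3.15e-08). Of 28 genes of apoptosis and the p53 pathway, 3 were higher and 7 lower (2 and 6 of its 15 members), and 13 genes of that list were no members. Centring on the autosomal median brought the number higher to 13. Casp2, a caspase, read 9.99, 9.82 and 8.72 and then 5.00 and 5.33 (change -4.34 ± 0.32 (SE), limma adjusted p = 8.01e-09), and Mdm4, an inhibitor of p53, read 8.29, 8.51 and 8.11 and then 10.63 and 10.41 (change 2.22 ± 0.35 (SE), limma adjusted p = 5.18e-05).

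The same stages were also read on separate arrays from trisomic males. These arrays did not enter the euploid means. They were part of the same model, however, so each gene's spread was estimated from the arrays of both genotypes together. The changes are thus separate readings, but the calls share that spread, and the counts of shared calls below are not independent support. Ts43H males carry an additional copy of part of chromosome 17 by a translocation with chromosome 16. Of the 9058 members, 3636 (40.1%) were higher and 3252 (35.9%) lower in trisomic mid-late pachytene. The members were chosen by their euploid means, and the trisomic shares over all named genes were not counted. Of the members, 3405 were higher in both genotypes, which is 89.6% of the euploid and 93.6% of the trisomic rises. For falls the shared number was 2920, or 91.5% and 89.8%. Only 2 members were called in opposite directions. The X-linked members had a median change of -3.16 in trisomic cells, and the flagellum list had 42 of 51 higher with a median of 3.26.

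A test of the difference between the genotypes' changes passed for 55 members (0.607%), with 31 more positive and 24 more negative in euploid cells. The share passing over all named genes was not counted. In this test, 1283 members had an unadjusted p under 0.05. The count of 55 was unstable. It was 354 without euploid mid-late replicate 1, 160 without euploid pre-mid replicate 2, 158 without trisomic pre-mid replicate 3 and 29 without trisomic pre-mid replicate 1 or 2. Most of the 55 moved the same way in both genotypes. Ttc22 had the largest difference: it read 2.67, 2.67 and 2.20 and then 4.96 and 3.86 in euploid cells and 2.70, 2.70 and 2.68 and then 8.02 and 7.70 in trisomic cells. The difference of changes was -3.28 (limma adjusted p = 0.000417). Lat2, an adaptor of immune receptor signalling, rose by 3.38 in euploid and by 1.53 in trisomic cells (difference 1.85, limma adjusted p = 1.55e-08).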

How the data were processed

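Affymetrix arrays were run on sorted euploid and trisomic germ cells and on liver. Per the submitters' processing notes the authors used GCRMA, and what they deposited is a log2 intensity for each probe set, here from 0.90 to 16.75. How arrays were grouped for GCRMA is not given in the sources used here. An array has no read depth, so the number of arrays limits the precision. Of 16539 probe sets, 15780 carried 1 gene symbol and 759 none; 15752 genes were placed on chromosomes through RefSeq (GRCm38.p6), 28 were not.

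A model of 8 group means was fitted to all 22 arrays in limma 3.58.1 (R 4.3.3), with 14 residual degrees of freedom, two-sided moderated tests and Benjamini-Hochberg adjustment over all named genes at 0.05. The script was checked on simulated data. The members and lists were chosen with earlier results of these data known. Named genes were the 15 largest rises and falls without overlap between stages, up to 4 called members per list by size of change, the 8 largest X-linked falls and all X-linked rises, the genes of X-autosome pairs, and defining markers; any other gene was named after its values were seen. Alternatives covered filters, quantile normalization, centring, the variance model, the arrays in the fit, the replicate number as a block and leaving out each array.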

Additional observations from a re-analysis of the deposited data

Results flagged for a closer look

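Among the genes chosen by the naming rule, 2 changed differently in the genotypes by limma's interaction test, besides Ttc22 and Lat2, which were named above because they passed it. Slc25a54 rose in both, by 8.49 in euploid and by 9.76 in trisomic cells, a difference of -1.27 (limma adjusted p = 0.00888). It read 2.73, 2.74 and 2.98 and then 12.57 and 12.59 in trisomic cells. Uchl1, a deubiquitinating enzyme of spermatogonia, fell in both, by 5.65 in euploid cells and with a change of -3.35 in trisomic cells, a difference of -2.30 (limma adjusted p = 0.0276). It read 8.74, 7.84 and 7.90 on the euploid and 7.87, 8.04 and 8.25 on the trisomic pre-mid arrays, while the mid-late arrays read 2.54 and 2.48 in euploid cells, against 4.38 and 5.02 in trisomic cells. The euploid mid-late arrays were at background, where the size of a fall depends on the floor, and the trisomic ones were above it. Groups of 2 or 3 arrays are too small for a test of single outlying arrays.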

How the results depend on the processing

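The numbers of genes called higher or lower, in euploid and in trisomic cells, stayed within 1.5 times the reported counts under every alternative run. In euploid cells they ranged from 3093 (only genes whose 5 arrays average 6 or more) to 4424 (autosomal centring) for rises, and from 2373 (the same restriction) to 3476 (quantile normalization) for falls. Leaving out 1 array gave 3503 to 3760 rises and 2877 to 3176 falls. In trisomic cells it gave 3337 to 3538 rises and 2943 to 3141 falls. The count of genes whose change differed between genotypes was 55, and was 2 with that restriction, 32 with an intensity trend and robust spread, 23 with the 16 germ cell arrays alone, and 29 to 354 when 1 array was left out. The median change of X-linked genes was -0.38, and was -3.41 over members alone, -5.01 with the restriction to averages of 6 or more, -0.29 after quantile normalization, -0.07 after autosomal centring, and -0.41 to -0.23 without 1 array. Centring added the same 0.32 to X-linked and autosomal changes, so it did not alter the distance between their medians. The values of -3.41 and -5.01 left out genes of low level. The cause of the other shifts was not tested.

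With the replicate block, 3726 genes rose, 3143 fell, 27 differed between genotypes, and the X median was -0.36. In trisomic cells the block gave 3584 rises and 3190 falls. Deviations of arrays with the same number had correlations of -0.201 and -0.032 for numbers 1 and 2. Deviations of 2 mid-late arrays from their own mean mirror each other. These correlations therefore cannot tell whether the numbers pair the arrays. Cstf2t reversed to -0.19 after quantile normalization and Fam47c to -0.03 without mid-late replicate 1 (its change was 2.65 without mid-late replicate 2). Of 150 named genes, up to 10 lost their call in any 1 setting, that number with the 5 arrays alone. Changes of genes at background are limited by signal over background.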

Other observations

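A pair of Prss protease genes on chromosome 9 moved in opposite directions, Prss50 with the largest fall and Prss42 with 1 of the 5 largest rises. Prss42 read 5.38, 4.77 and 3.38 on the pre-mid arrays, 12.76 and 12.88 on the mid-late arrays and 11.92, 12.37 and 11.85 in spermatids. Its change was 8.31 ± 0.47 (SE), limma adjusted p = 2.89e-10. The pair was picked after the values were seen.

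Cgas, the sensor of cytosolic DNA, was high in mid-late pachytene alone among the euploid germ cell stages. It read 3.14, 3.13 and 3.26, then 6.33 and 6.26 (change 3.12 ± 0.08 (SE), limma adjusted p = 2.39e-14), and 3.16, 3.20 and 3.24 in spermatids. Lat2 had the same shape, at 2.14, 2.14 and 2.19, then 5.43 and 5.65, and 2.15, 2.19 and 2.24 in spermatids, and Zbtb8a, a zinc-finger gene, was lower again in spermatids, at 2.19, 2.27 and 2.20, then 8.62 and 9.28, and 3.83, 4.53 and 5.66. All 3 came to notice because their change differed between genotypes, and the cause was not tested.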
